A study of Mus musculus with 8 samples.

Results

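The data described here are the H3K27me3 peaks on and around 4 large mouse genes, Cacna1c, Ebf1, Gas7 and Gpc6. The genes were chosen from the Kdm6bMUT peak list, by long and nearly continuous stretches of H3K27me3 peaks over their bodies in morulae, so their Kdm6bMUT coverage is given as a description and not as a finding. Their bodies held 197 of the 90158 Kdm6bMUT peaks and 23 of the 4991 Kdm6bWT peaks. The embryos were hybrids of BDF1 mothers, 8 weeks old when oocytes were collected, and PWK fathers, by the strain label, while the protocol text also names BDF1 sperm. Zygotes were injected between 2.5 and 4 hours after fertilization with 1.8 µg/µl of mRNA, either for Kdm6b itself (the Kdm6bWT group) or for a mutant Kdm6b (the Kdm6bMUT group), and H3K27me3 was profiled in whole morulae by ultra-low-input native ChIP-seq. There was 1 ChIP library for each injection, called against an input library that is titled by injection but tagged as uninjected. Every comparison below is therefore between 2 libraries, with no replicate check and no test. The peak lists pool both parental alleles and all cells of the morula. Read depth is unknown, and the lists give no read counts. Expression of the 4 genes was not analysed here.

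H3K27me3 is laid down on nucleosomes by Polycomb repressive complex 2, which can spread the mark along a chromosome once it is recruited, and it is found on genes that are kept silent. Kdm6b belongs to the family of demethylases that remove the mark. In mouse oocytes H3K27me3 forms broad domains that reach far beyond CpG islands into silent gene bodies and intergenic sequence, and part of this maternal pattern is carried into the early embryo. The 4 genes have their best-known roles in differentiated tissues. Cacna1c encodes the pore-forming subunit of an L-type voltage-gated calcium channel of heart, smooth muscle and brain. Ebf1 encodes a transcription factor needed for B-cell development. Gas7 encodes an F-BAR protein studied in neurite outgrowth, and Gpc6 a glypican, a heparan sulfate proteoglycan anchored to the cell surface.

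The gene spans used are mm9 coordinates in whole kb, so rounding alone makes a distance to a gene end uncertain by up to about 1 kb. The spans were not checked against an mm9 annotation, so the error may be larger. Cacna1c lies at chr6:118537000-119147000 on the minus strand, so its start is at the higher coordinate. Ebf1 lies at chr11:44430000-44822000, Gas7 at chr11:67269000-67499000 and Gpc6 at chr14:117320000-118370000, all on the plus strand. Cacna1c thus spans 610 kb, Ebf1 392 kb, Gas7 230 kb and Gpc6 1050 kb. In the order of RefSeq protein-coding genes on GRCm38.p6, Cacna1c lies between Ankrd26 beyond its end and Dcp1b, which overlaps it on the side of its start and is followed by Cacna2d4. Ebf1 follows Rnf145 and precedes Clint1. Gas7 follows Myh13 and overlaps Glp2r at its end, and Gpc6 lies between Gpc5 and Dct.

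The sequences at gene starts are shown because domain edges are set against gene starts below. There, a gene start means the limit of the span only, and no inner start was set against peaks or edges. RefSeq start windows matched 2 of the 4 genes, Cacna1c and Ebf1. The 250 bases before a start are printed 5′ to 3′ in the direction of transcription, from RefSeq on GRCm38.p6, with each CpG (the letters CG, which read the same on both strands) in capitals. These positions belong to another build and were not set against the mm9 peaks. The first is the outermost listed start of Cacna1c (chr6:119196410-119196659, minus strand), the second the most CpG-dense of its inner starts (chr6:119108496-119108745, minus strand) and the third the outermost listed start of Ebf1 (chr11:44617850-44618099, plus strand).
Cacna1c outermost start: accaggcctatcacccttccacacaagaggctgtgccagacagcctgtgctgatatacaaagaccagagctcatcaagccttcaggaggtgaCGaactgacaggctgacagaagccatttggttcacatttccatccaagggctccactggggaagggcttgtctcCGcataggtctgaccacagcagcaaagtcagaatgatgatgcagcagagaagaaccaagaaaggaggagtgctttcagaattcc
Cacna1c inner start: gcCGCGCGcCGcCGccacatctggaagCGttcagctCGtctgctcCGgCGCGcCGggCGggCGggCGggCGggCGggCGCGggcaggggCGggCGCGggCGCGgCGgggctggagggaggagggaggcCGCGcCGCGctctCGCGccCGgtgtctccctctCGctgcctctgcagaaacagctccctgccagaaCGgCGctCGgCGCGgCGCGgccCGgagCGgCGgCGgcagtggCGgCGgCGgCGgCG
Ebf1 outermost start: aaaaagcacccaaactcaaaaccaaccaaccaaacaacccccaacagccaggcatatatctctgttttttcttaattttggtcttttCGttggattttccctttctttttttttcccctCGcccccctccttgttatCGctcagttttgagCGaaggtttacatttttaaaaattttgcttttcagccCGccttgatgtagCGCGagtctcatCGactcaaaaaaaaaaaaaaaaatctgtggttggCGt
The outermost Cacna1c window holds 2 CpGs and is 51.6% G and C, and 81.2% of the 32851 RefSeq windows of this length hold at least as many CpGs. The inner Cacna1c window holds 48 CpGs at 82.8% G and C, a number reached by 0.186% of the windows. The Ebf1 window holds 9 CpGs at 40.0% G and C, reached by 40.3% of them. The median window holds 6 CpGs. Of the windows not printed, the third listed start of Cacna1c, further inside the gene, holds 5 CpGs (reached by 55.6% of the windows), and the second listed start of Ebf1 holds 14 (29.4%).

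H3K27me3 peaks covered most of each gene body in Kdm6bMUT-injected morulae and between 0.445% and 1.28% of it in Kdm6bWT-injected morulae. Kdm6bMUT peaks covered 516 kb of Cacna1c, 84.6% of the body. They covered 307 kb or 78.3% of Ebf1, 201 kb or 87.3% of Gas7, and 824 kb or 78.5% of Gpc6. The autosomes together were covered at 10.0%. Kdm6bWT peaks covered 7.79 kb or 1.28% of Cacna1c, 4.36 kb or 1.11% of Ebf1, 1.05 kb or 0.456% of Gas7 and 4.67 kb or 0.445% of Gpc6, against 0.137% of the autosomes. Among peaks of at least 1 kb, Kdm6bWT coverage was 0.730% of Cacna1c and 0.866% of Ebf1, and 0% of Gas7 and of Gpc6. Such dense coverage was uncommon: of 12330 autosomal windows of 200 kb, 93 were covered by Kdm6bMUT peaks over at least 75% of their length (0.754%), and 10 of these lay on one of the 4 genes. The part that read depth has in the difference between the lists was not tested.

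**Figure D1:**
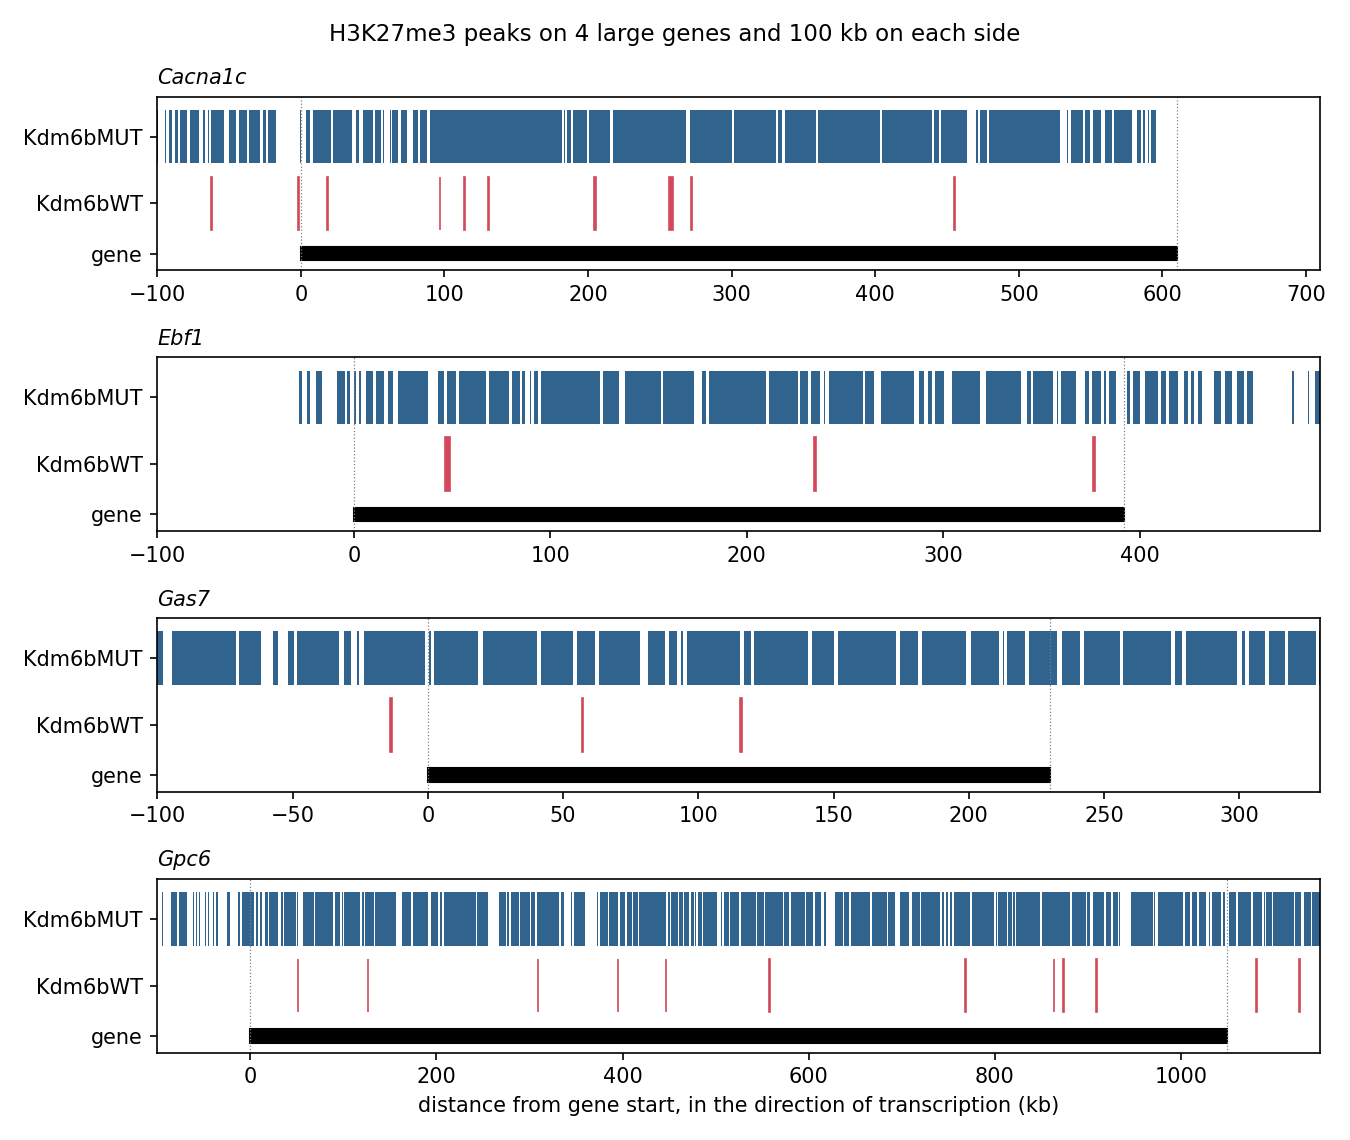
Peaks of the 2 lists on each gene, plotted by distance from the gene start in kb along the direction of transcription, with 100 kb on each side. Blue boxes are Kdm6bMUT peaks, red marks are Kdm6bWT peaks (drawn with a minimum line width) and the black bar is the gene body; Kdm6bMUT boxes fill 78.3% to 87.3% of the bodies, and the 23 Kdm6bWT marks are scattered over them.

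To describe stretches of H3K27me3, Kdm6bMUT peaks separated by less than 10 kb were joined into runs. Joined in this way, the stretch on Cacna1c lay almost within the limits of the gene. A single run of 596 kb (chr6:118551782-119147623) with 40 peaks, filled by peaks to 86.7%, lay over the gene. It ended 623 bases outside the gene start, which is within the rounding of the span, and 14.8 kb short of the gene end. The last 10 kb of the gene and the 10 kb beyond it had no Kdm6bMUT peak, and the emptiness went on: coverage was 0% in each 50 kb step up to 200 kb past the end, on the side of Ankrd26. On the side of the start, the 10 kb inside the gene were covered at 52.9% and the 10 kb outside at 6.23%. The next run began 17.7 kb before the start and went on to 150 kb before it, on the side of Dcp1b and Cacna2d4, filled to 60.7%. The edge at the start depends on the joining distance: across gaps under 20 kb this run and the one over the gene become 1 run of 746 kb, while the edge near the gene end stays where it is. Across gaps under 5 kb the run over the gene splits in 2: a run of 465 kb from the gene start to 464 kb inside, and a run of 125 kb from 470 to 595 kb inside. The 50 kb before the start were covered at 52.0%, less than the body and far more than the 50 kb past the end.

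Within Cacna1c the coverage was highest in the middle. In 10% segments of the body from start to end, it rose from 71.0% in the first to 97.7% in the third, stayed between 80.5% and 97.7% up to the ninth, and was 54.0% in the last. The widest peak of the whole Kdm6bMUT list, 91.8 kb (chr6:118965425-119057236), lay between 89.8 and 182 kb from the gene start. The next widest of the gene measured 51.3 kb (chr6:118878497-118929801) and 49.5 kb (chr6:118618090-118667550), which ranked 13 and 15 in the list. Their fold enrichments over input were 3.56, 3.48 and 3.36. The peak at the gene start itself was narrow, with 991 bases (chr6:119146633-119147623) and a fold enrichment of 3.12. The highest score of the body, 28, belonged to a peak of 3918 bases (chr6:119091265-119095182) with a fold enrichment of 3.76, so the widest peak was not the most enriched.

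Ebf1 was covered along its whole body, and its H3K27me3 stretch went past the gene on both sides. The run over Ebf1 had 60 peaks in 493 kb (chr11:44401905-44894501), filled to 72.7%. It began 28.1 kb before the gene start and ended 72.5 kb past the gene end. Across gaps under 5 kb the run over the gene measured 440 kb, from 8.52 kb before the start to 39.5 kb past the end. Beyond the run on the side of the start, the steps from 50 to 150 kb out were at 0%, whereas the step from 200 to 250 kb out reached 59.1%. Past the end the coverage declined by steps, from 55.0% in the first 50 kb to 29.9%, 22.6%, 7.53% and 0%. The 10 kb on the inner and outer side of the gene start were covered at 58.3% and 54.0%, and those at the gene end at 48.5% and 49.9%. At this scale no step in coverage marked either end. Over the 50 kb before the start coverage was 24.0%, against 78.3% in the body. Across the 10% segments of the body the share was 70.8% in the first, 89.4% in the sixth and 58.0% in the last.

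The peaks on Ebf1 were narrower than the widest on Cacna1c. The 3 widest measured 29.7 kb (chr11:44525453-44555117), 28.9 kb (chr11:44610929-44639849) and 18.3 kb (chr11:44567887-44586147), and ranked 146, 162 and 808 in the list. A peak of 1166 bases (chr11:44429957-44431122) lay on the gene start, and was enriched 2.76-fold over input, under the 2.87 that marks the lower quartile of the list. The highest score of the body, 28, was that of a peak of 1721 bases (chr11:44802398-44804118) with a fold enrichment of 3.82, near the end of the gene. As on Cacna1c, the start peak was enriched less than the median peak of the body (3.26 on Ebf1, 3.35 on Cacna1c). The best-scoring peak was also narrower than the body median on both genes. Against the whole list the genes differed. The Cacna1c start peak was above the list's median fold of 3.07, and its best-scoring peak was wider than the upper quartile of 3316 bases.

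Gas7 was the smallest of the 4 genes and lay inside a stretch far larger than itself. The run over it had 60 peaks in 614 kb (chr11:67041218-67655003), filled to 80.2%, and the gene took up 230 kb of it. It began 228 kb before the gene start, on the side of Myh13, and ended 156 kb past the gene end, on the side of Glp2r. The 50 kb before the start were covered at 84.2% and the 50 kb past the end at 85.7%, close to the 87.3% of the body. Coverage from 100 to 150 kb before the start was still 89.0%, and it fell to 5.99% between 150 and 200 kb past the end. The body was also the most even, with 10% segments between 80.5% and 94.2%. Its 3 widest peaks measured 21.5 kb (chr11:67420554-67442060), 20.2 kb (chr11:67289289-67309478) and 19.9 kb (chr11:67389548-67409405), ranks 470, 571 and 610 of the list. The peak nearest the start was 964 bases wide (chr11:67269282-67270245, fold enrichment 2.97), and the highest score, 29, was that of a 16217-base peak (chr11:67451884-67468100) with a fold enrichment of 3.89.

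Gpc6, the longest gene, was covered by 3 runs at the joining distance of 10 kb, and by 1 run of 1671 kb across gaps under 20 kb, from 489 kb before the gene start to 132 kb past the gene end. At the distance of 10 kb, the runs were as follows. A run of 454 kb (chr14:117225537-117679707) reached from 94.5 kb before the gene start to 360 kb inside it. It was followed after a gap of 12.7 kb by a run of 562 kb (chr14:117692368-118254266), and after a gap of 11.8 kb by a run of 236 kb (chr14:118266058-118502001) that ended 132 kb past the gene end. The 3 runs were filled to 70.7%, 82.0% and 79.7%. Outside the start, the 5 steps of 50 kb were covered between 39.7% and 47.9%, about evenly. Past the end, on the side of Dct, coverage was 77.6% and 86.7% in the first 100 kb, then 41.2%, 0% and 48.9%. The 10 kb just outside the gene were covered more fully than the 10 kb just inside, with 94.2% against 63.3% at the start and 78.9% against 53.9% at the end. The 10% segments of the body lay between 68.5% and 83.6%.

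The widest peaks on Gpc6 measured 34.3 kb (chr14:117527974-117562236), 30.8 kb (chr14:118170525-118201342) and 28.6 kb (chr14:117738153-117766762), which ranked 75, 129 and 170. A peak of 13897 bases (chr14:117310579-117324475, fold enrichment 3.27) covered the gene start, the only start of the 4 under a peak of over 10 kb. The highest score on any of the 4 bodies, 38, was that of a 2515-base Gpc6 peak (chr14:117439660-117442174) with a fold enrichment of 4.45.

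**Figure D2:**
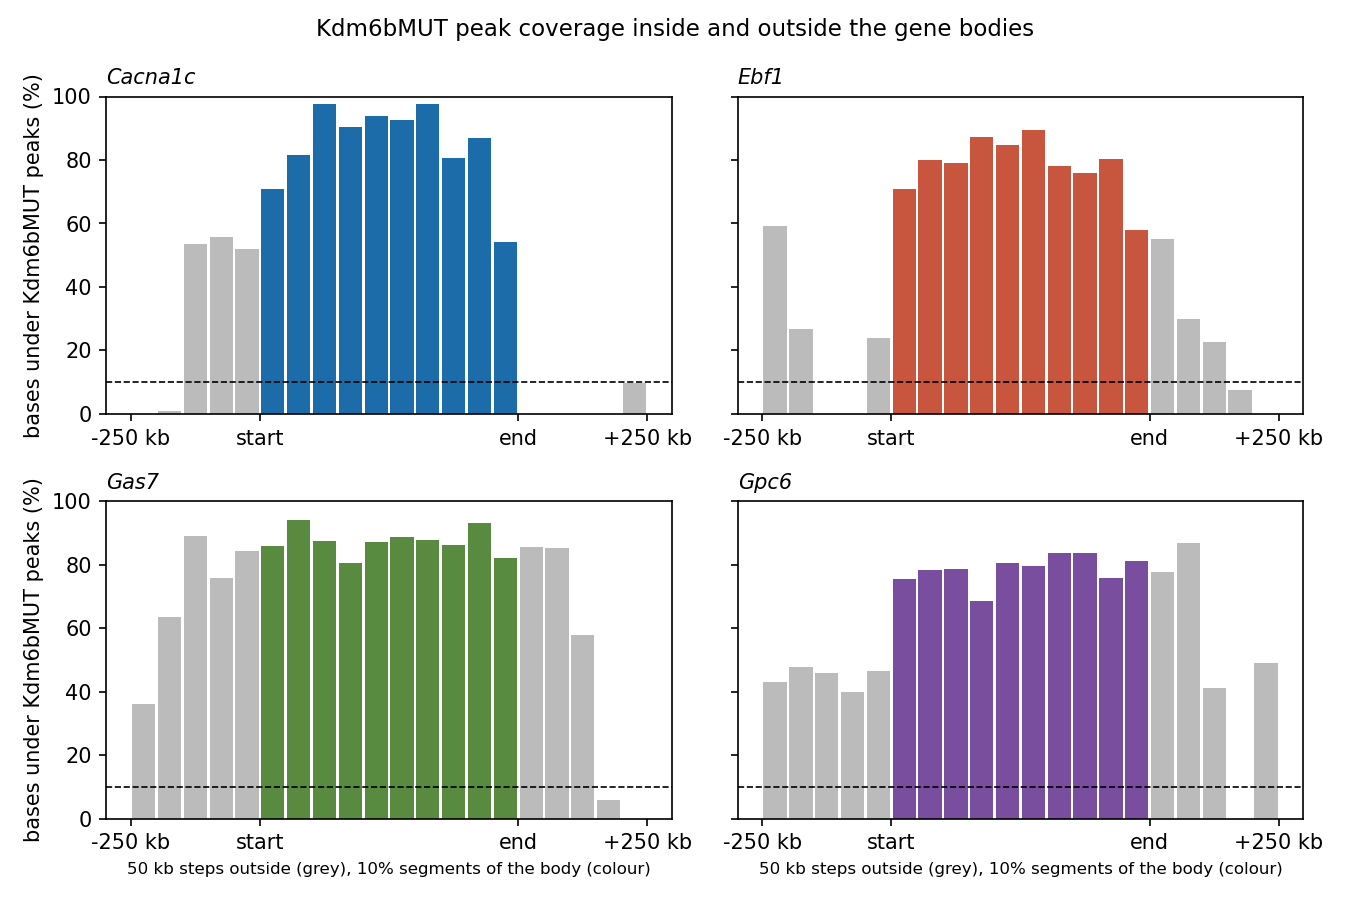
Percent of bases under Kdm6bMUT peaks in each 10% segment of the gene body (coloured bars, from start to end) and in 50 kb steps up to 250 kb outside (grey bars), with the 10.0% of the autosomes as a dashed line. Cacna1c falls to 0% just past its end, Ebf1 tapers off past its end, and the grey bars next to Gas7 are within 3.07 percentage points of its body as a whole.

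The coverage of the flanks and the distance of domain edges from gene ends differed between the genes. Over the 4 genes, the 50 kb flanks were covered at 53.1% and the bodies at 81.0%, with single flanks between 0% (past the end of Cacna1c) and 85.7% (past the end of Gas7). Of the 8 gene ends, 1 had a run edge within 10 kb, the start of Cacna1c. The end of Cacna1c came next at 14.8 kb, then the start of Ebf1 at 28.1 kb, and the other ends were 72.5 kb or more from an edge. How often other positions lie within 10 kb of a run edge was not counted, so nothing is read from the 1 of 8. Each of the 8 flanks was covered less than its gene body, which the choice of the genes by their covered bodies favours. The difference was as small as 1.62 and 3.07 percentage points at the end and start of Gas7 and 0.920 points past the end of Gpc6, and was 23.3 points or more at the other 5. By length, the runs on Cacna1c, Ebf1 and Gas7 ranked 12, 35 and 11 of 17285, and those on Gpc6 20, 44 and 287. With gaps under 5 kb the longest run on each gene ranked 3 (Cacna1c), 4 (Ebf1), 1 (Gas7) and 58 (Gpc6) of 30698. With gaps under 20 kb it ranked 46, 94, 82 and 2 of 9667, so the order of the genes depends on how peaks are joined.

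Peaks on the 4 bodies were wider than those of the list as a whole, as the choice of the genes implies. Median widths were 4.66 kb on Cacna1c, 3.99 kb on Ebf1, 9.21 kb on Gas7 and 6.66 kb on Gpc6, against 1577 bases in the list. Of the 197 peaks, 64 were at least 10 kb wide, or 32.5%, against 4.27% of the list; these genes were selected on this property and nothing is read from the difference. By gene the numbers were 13 of 40 on Cacna1c, 12 of 42 on Ebf1, 10 of 20 on Gas7 and 29 of 95 on Gpc6. Peaks of 10 kb or more held 81.9% of the peak bases on Cacna1c, 69.2% on Ebf1, 79.1% on Gas7 and 64.6% on Gpc6. The smallest peaks had 300 bases on Cacna1c, Ebf1 and Gpc6 and 447 bases on Gas7. Gaps between neighbouring peaks of a body had medians of 1.60 kb (Cacna1c), 1.65 kb (Ebf1), 1.46 kb (Gas7) and 1.80 kb (Gpc6), and the longest were 6.07, 4.97, 2.95 and 12.7 kb. Median fold enrichments lay close together, at 3.35, 3.26, 3.39 and 3.34, above the list's 3.07 and with ranges that overlapped between genes (2.59 to 4.45 in all).

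**Figure D3:**
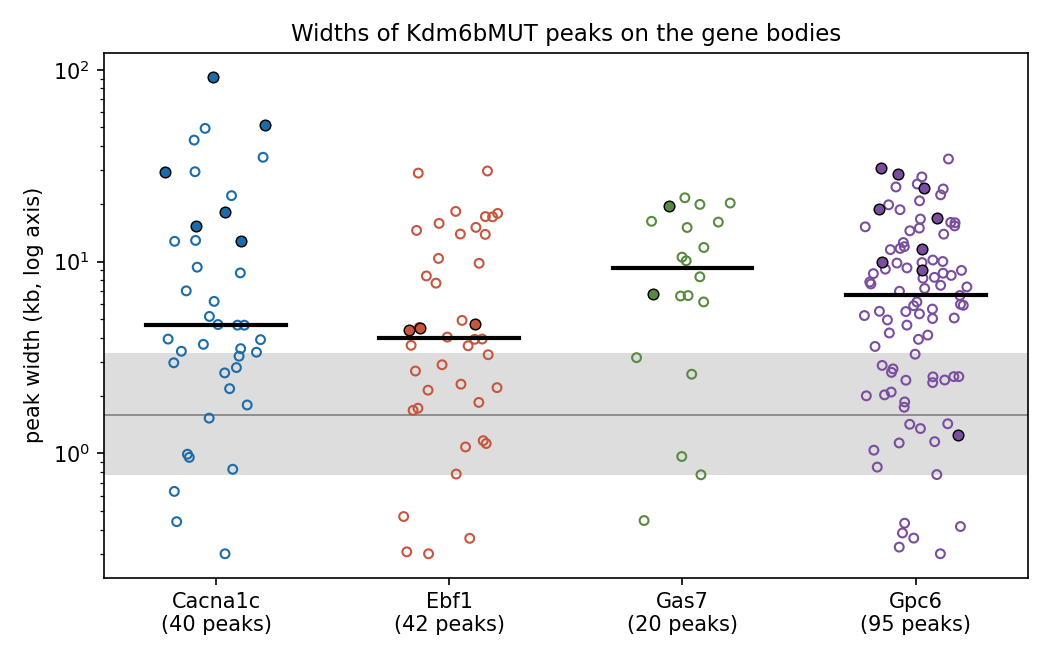
Width in kb (log axis) of each Kdm6bMUT peak on the 4 gene bodies, 1 point per peak, with the median of each gene as a black bar and the quartiles and median of the whole list as a grey band and line. Filled points are the 20 peaks touched by a Kdm6bWT peak. On Cacna1c and Gpc6 they lie mostly above the median of the gene, and on Ebf1 close to it. A wider peak is more likely to be touched, so nothing is read from their widths.

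In the Kdm6bWT list the 4 genes carried a scatter of short peaks. The 23 Kdm6bWT peaks on the bodies covered 17.9 kb together, had a median width of 724 bases and ranged from 300 to 2277 bases; 5 reached 1 kb and 5 were 300 bases wide, the smallest width in the list. Their number per Mb was 13.1 on Cacna1c (95% exact Poisson interval 5.66 to 25.8), 7.65 on Ebf1 (1.58 to 22.4), 8.70 on Gas7 (1.05 to 31.4) and 9.52 on Gpc6 (4.57 to 17.5). These intervals cover counting error only, and they overlap, so no order of the genes by their number of Kdm6bWT peaks per Mb is read from them. Over the 4 bodies the density was 10.1 per Mb (6.39 to 15.1), and over the autosomes it was 1.94. All 23 lay on a Kdm6bMUT peak by at least 1 base (100%, 95% exact interval 85.2% to 100%), where 49.5% of the whole Kdm6bWT list did. With 81.0% of the body bases under Kdm6bMUT peaks, an overlap of 1 base was likely at any place on them. Nothing is therefore read from the difference. Of the 23, 20 lay inside a Kdm6bMUT peak with their full width.

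Seen from the Kdm6bMUT side, 20 of the 197 body peaks were touched by a Kdm6bWT peak, or 10.2% (95% exact interval 6.31% to 15.2%), against 2.66% of the list. The genes were chosen for wide peaks, and in the whole list peaks of at least 10 kb are touched more often than others. Among Kdm6bMUT peaks of at least 10 kb, 13 of the 64 on the 4 bodies were touched, or 20.3% (11.3% to 32.2%), and the 14.1% of all such peaks in the list lies inside this interval. Kdm6bWT peaks held 1.51% of the Kdm6bMUT bases of Cacna1c, 1.14% of those of Ebf1, 0.175% of those of Gas7 and 0.553% of those of Gpc6, with 0.591% on the autosomes. The higher values of Cacna1c and Ebf1 rest in part on peaks of low score, as another measure shows, the share of body bases under Kdm6bWT peaks. With all peaks that share was 1.28% on Cacna1c, 1.11% on Ebf1, 0.456% on Gas7 and 0.445% on Gpc6. When Kdm6bWT peaks scoring under 13 were left out, it was 0.618%, 0.559%, 0.456% and 0.388%. The nearest comparison is with densely covered sequence elsewhere. In the 83 windows of 200 kb that were at least 75% covered and lay on no member, Kdm6bWT peaks held 0.732% of the Kdm6bMUT bases and numbered 8.37 per Mb. In the 10 such windows that lay on a member they held 0.689% and numbered 8.50 per Mb. Median Kdm6bMUT coverage was 78.4% in the 83 windows and 82.6% in the 10. The 4 bodies as a whole had 0.877% and 10.1 per Mb. The interval of their density covers counting error only and includes 8.37.

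On Cacna1c the 8 Kdm6bWT peaks lay between 18.4 and 455 kb from the gene start, and each was inside a Kdm6bMUT peak of at least 12.9 kb. The widest Kdm6bWT peak of the 4 genes, 2277 bases (chr6:118888075-118890351, fold enrichment 5.03, score 27), lay in the 51.3 kb Kdm6bMUT peak. The widest Kdm6bMUT peak held 3 of them, with 1029 bases (chr6:119015988-119017016), 704 bases (chr6:119032669-119033372) and 312 bases (chr6:119049882-119050193) and fold enrichments of 3.77, 4.12 and 3.63. The other 4 began at 118691647, 118874297, 118941614 and 119127856 on chromosome 6. They were 724 to 1149 bases wide, with fold enrichments of 3.61 to 3.99. Their scores were 10 to 13, at or below the list's median of 13. Just outside the gene, a Kdm6bWT peak of 442 bases (chr6:119148564-119149005, fold enrichment 3.68) stood 1.56 to 2.01 kb before the start, in the interval free of Kdm6bMUT peaks, and was the only Kdm6bWT peak within 50 kb of any of the 4 genes that touched none.

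On Ebf1 the 3 Kdm6bWT peaks were among the wider ones, with 2193, 963 and 1200 bases. They lay 46.7, 234 and 376 kb from the gene start (chr11:44476660-44478852, chr11:44664437-44665399 and chr11:44806277-44807476), with fold enrichments of 3.87, 3.88 and 3.85. The Kdm6bMUT peaks under them were 4.39 to 4.75 kb wide, and the 3 widest Ebf1 peaks held none. The first of these Kdm6bWT peaks extended past its Kdm6bMUT peak, with 61.4% of its bases on it. The 50 kb flanks of Ebf1 had no Kdm6bWT peak.

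On Gas7 the 2 Kdm6bWT peaks were a 300-base peak (chr11:67326093-67326392) with a fold enrichment of 5.11 and a 748-base peak (chr11:67384319-67385066) with 4.17. The second lay mostly in a gap, with 52 bases on a Kdm6bMUT peak. Another Kdm6bWT peak (chr11:67255132-67255919, fold enrichment 3.80) lay 13.1 kb before the gene start, in a Kdm6bMUT peak of 22.6 kb. Gas7 had the highest Kdm6bMUT coverage of the 4 bodies and the lowest share of it in Kdm6bWT peaks, which rests on these 2 peaks alone.

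On Gpc6 the 10 Kdm6bWT peaks were spread from 51.0 to 909 kb from the gene start and were short, 300 to 938 bases, with 4 at 300 bases. Their median fold enrichment was 4.30, above the upper quartile of 4.15 for the Kdm6bWT list, and on Cacna1c it was 3.74. The Gpc6 peaks were also the narrower ones, and this difference was not tested. The strongest Kdm6bWT peak of the 4 genes was on Gpc6 (chr14:117766457-117766879), with 423 bases, a fold enrichment of 6.34 and a score of 50, which ranked 55 of the 4991. It straddled the edge of the 28.6 kb Kdm6bMUT peak, with 72.3% of its bases on it. A pair lay in the 30.8 kb peak (chr14:118183439-118184194 and chr14:118193588-118193887, fold enrichments 4.37 and 4.20). The remaining 7 began at 117371041, 117445944, 117628731, 117715067, 117877696, 118088466 and 118228978 on chromosome 14, with fold enrichments of 3.75 to 4.56. Past the gene end, 31.2 kb out, a Kdm6bWT peak of 640 bases (chr14:118401224-118401863, fold enrichment 4.23) lay in a 9.62 kb Kdm6bMUT peak. No Kdm6bWT peak lay on the Kdm6bMUT peak nearest to the start of any of the 4 genes. In the whole list 2.66% of Kdm6bMUT peaks were touched, so nothing about gene starts is read from these 4 peaks.

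**Figure D4:**
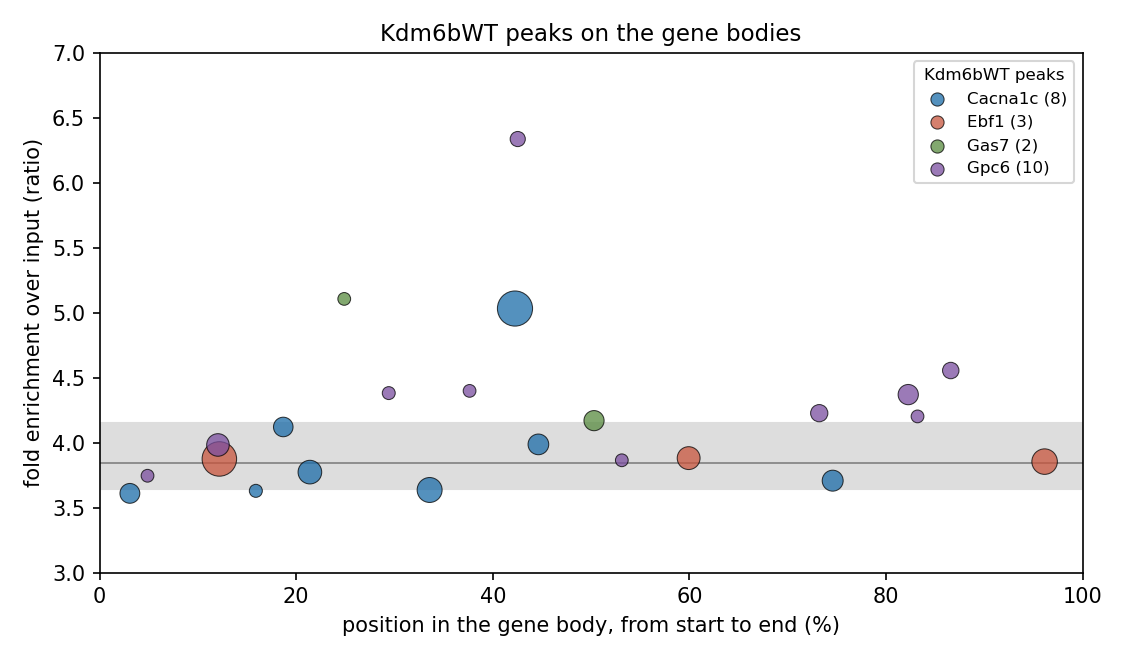
Fold enrichment over input (a ratio, vertical axis from 3 to 7) of the 23 Kdm6bWT peaks on the gene bodies against their position from gene start (0%) to gene end (100%), with the point area in proportion to peak width. The grey band and line are the quartiles and median of the whole Kdm6bWT list; the highest point is the Gpc6 peak at 6.34, and the largest are the 2277-base Cacna1c peak and the 2193-base Ebf1 peak.

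Kdm6bWT peaks lay both in the inner and in the outer parts of the Kdm6bMUT peaks. The centre of 11 of the 23 lay in the inner 50% of the Kdm6bMUT peak it touched, and 12 lay further out or past its edge. Whether they favour a finer place, such as the edge, was not tested. On the 4 bodies together, touched Kdm6bMUT peaks had a median width of 16.1 kb and untouched ones 5.18 kb. A wider peak is more likely to be touched by at least 1 base, so nothing is read from this difference in width. The median fold enrichments of touched and untouched peaks were 3.41 and 3.34. The fold enrichments thus differed little beside the range of 2.59 to 4.45 among body peaks.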

How the data were processed

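H3K27me3 was measured in morulae with 1 ChIP library per injection; RNA-seq of blastocysts (4 samples) was not analysed here. Each deposited list holds peaks of a ChIP library called against input, per the file names. Build mm9 and the tools MACS2 and Bowtie2 2.2.2, besides RNA-seq tools, are listed without roles in the submitters' processing notes. The lists have no header and follow the column order of a MACS2 broad peak list: the authors deposited a whole-number score, a fold enrichment over input (a ratio), and a −log10 p and −log10 q for each peak. Caller settings, duplicate handling and depth were not given in the sources used here, so folds are used only within a list.

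Peak bases were counted over gene spans, 50 kb flanks, 10% segments and 200 kb autosomal windows (Python 3.11.15, numpy 2.4.6, pandas 2.3.3, scipy 1.17.1, matplotlib 3.10.9). Overlap means at least 1 shared base. The functions were tested on simulated data. Intervals are 95% exact binomial or Poisson and cover counting error only. Genes, spans and settings were chosen with earlier results of these data known. Peaks named are the 3 widest, the highest-scoring and the one nearest the start of each body, and the Kdm6bWT peaks of bodies and flanks. Strands of Gas7 and Gpc6, and the use of the spans as gene bodies, rest on general knowledge and not on an mm9 annotation.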

Additional observations from a re-analysis of the deposited data

How the results depend on the processing

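No paired analysis was possible because there was 1 ChIP library per group. Of 36 alternative values for the 4 genes together, 25 stayed inside a 95% exact interval taken over whole kb or peaks (for the number of gene ends, within 1.5 times) and 11 did not. For single genes, 20 of 24 stayed inside. Some of these values could not move: a floor at the lowest −log10 p of the Kdm6bWT list leaves Kdm6bWT coverage unchanged. The intervals also treat neighbouring kb as independent, so these counts are no measure of stability. These intervals are wide for the few Kdm6bWT peaks: with a score of at least 13, inside them, Kdm6bWT coverage was 0.486% in bodies and 0.160% in flanks, 0.510% of the Kdm6bMUT bases were held and 6.67% of the Kdm6bMUT body peaks touched, against 0.783%, 0.468%, 0.877% and 10.2% with all peaks. At the lowest −log10 p of the Kdm6bWT list, Kdm6bMUT peaks covered 76.5% of the bodies. By gene they covered 82.0% of Cacna1c, 71.3% of Ebf1, 86.5% of Gas7 and 73.0% of Gpc6. The values of Ebf1 and Gpc6 were outside their intervals, and those of Cacna1c and Gas7 inside. With peaks of at least 1 kb, by construction fewer, Kdm6bWT peaks covered 0.344% of the bodies and 0% of the flanks, held 0.381% of the Kdm6bMUT bases and touched 2.86% of the Kdm6bMUT body peaks. Merging peaks less than 5 kb apart filled gaps and gave a Kdm6bMUT coverage of 96.3% in bodies and 71.6% in flanks. No Kdm6bMUT body peak (0%) was covered by Kdm6bWT peaks over at least 50% of its width. The number of gene ends with a run edge within reach was 2 of 8 with gaps under 5 kb or a tolerance of 20 kb, and 0 with gaps under 20 kb. Kdm6bMUT coverage of the bodies stayed above that of the flanks in all settings that gave both. The choice of the genes by their covered bodies favours this order, so it is a description and not a finding. Depth is unknown and limits what the Kdm6bWT list can show.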
